A study of Mus musculus with 6 samples.

Results

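The plasminogen activation system was described at the transcript level in 4T1 cells, a mouse mammary carcinoma line that forms spontaneous metastases in Balb/c mice. The genes were 6 of the 53465 in the count table: the activators Plau and Plat, the receptor Plaur, the inhibitors Serpine2 and Serpinb2, and Plg, which encodes plasminogen itself. They were chosen by function and in part selected on measured values, since Serpine2 was listed with its absence of counts in the resistant line already known. Their differences between the lines are therefore given as a description, with no p-value. RNA was sequenced from 3 libraries of the parental line (P) and 3 of the axitinib-resistant line (AxR). Axitinib is an inhibitor of VEGF receptor tyrosine kinases, and AxR cells were grown out of spontaneous lung or lymph node metastases of mice that received it at 100 mg/kg/day before and after the primary tumor was resected, then kept in culture with 0.5 μM axitinib for over 2 months. P cells are 4T1 cells without that history. No treatment is given for them in the labels, the paper describes them as vehicle-treated, and the growth field of all 6 libraries nevertheless names 0.5 μM axitinib. Each line is a single culture history, and from how many mice or lesions AxR cells came is not given in the sources used here.

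Plasminogen is a circulating zymogen that is cut to plasmin, a protease that degrades fibrin and matrix proteins and activates other proteases. Urokinase (Plau) and tissue plasminogen activator (Plat) make that cut. Urokinase works at the cell surface on its receptor (Plaur), whereas tissue activator works mainly on fibrin. Inhibitors of the serpin family trap the activators in irreversible complexes, among them protease nexin-1 (Serpine2, which also traps thrombin) and plasminogen activator inhibitor-2 (Serpinb2). In mammary tumors the urokinase system is known for its part in invasion and metastasis.

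Values are RSEM estimated counts, given either as CPM (counts scaled to the normalized library size) or, where genes are set against each other, as CPM per kilobase of exon. The libraries held between 15495260 and 17294525 estimated counts, and 13550 genes passed the filter on low counts and were tested with edgeR. A count of 3 was taken as the floor, at most 0.196 CPM in any library, and covers counting error only. Nothing in the sources says that replicates were separate cultures, so that p-values measure only the spread between these libraries, which may be technical. The epithelial markers (Epcam, Krt8, Krt18, Krt14 and Cdh1) were all tested, and summed to between 1535 and 1695 CPM in P and between 2319 and 2409 CPM in AxR libraries. None of the 8 leukocyte, 6 fibroblast or 5 endothelial markers passed the filter. Their sums lay between 0.261 and 0.462 CPM in P and between 0.319 and 0.572 CPM in AxR libraries for leukocytes, between 0.391 and 0.851 and between 0.569 and 1.02 CPM for fibroblasts, and between 0.425 and 0.635 and between 0 and 0.191 CPM for endothelium. Tyrobp, Fcer1g, Adgre1 and Cd3e, Col3a1 and Lum, and Kdr and Emcn had no count in any library. In bulk RNA, fewer cells that express a gene and less RNA per cell cannot be told apart.

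Of the 6 genes, 5 passed the filter, and Plg, with no count in any library, did not. Plau, Plaur, Serpine2 and Serpinb2 were lower and Plat was higher in AxR than in P cells. All 5 passed an adjusted p under 0.05 in edgeR's quasi-likelihood test, where 63.5% of all genes tested passed, 32.8% as higher and 30.8% as lower in AxR cells. For all 5 the P and AxR libraries did not overlap, which held for 68.3% of all genes tested. Because the choice of genes used this contrast, nothing is read from these counts.

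**Figure D1:**
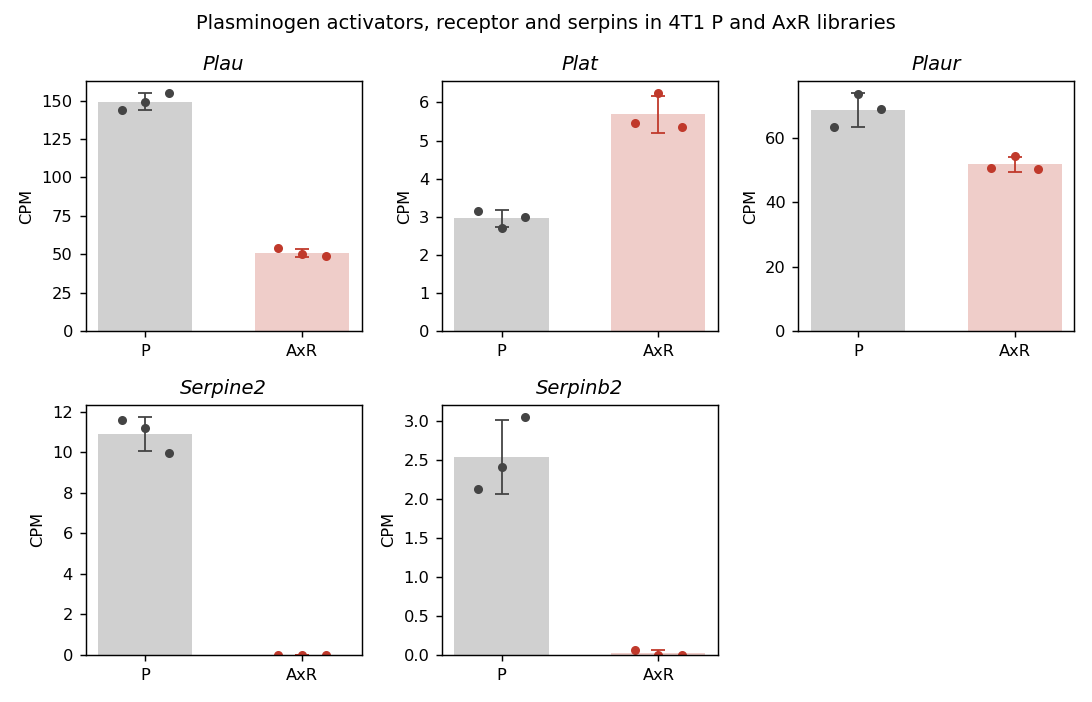
CPM (vertical axes, each from 0 and each with its own scale) of 5 of the genes in P and AxR libraries, with points for single libraries, bars for the mean and error bars for the SD (n = 3). Plau, Plaur, Serpine2 and Serpinb2 are lower in every AxR library, Plat is higher, and Serpine2 lies at 0 in AxR.

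Plau (ENSMUSG00000021822, bases 20836660 to 20843385 of chromosome 14 in GRCm38, plus strand) encodes urokinase and was the most abundant member per length in P cells. It had 144, 149 and 155 CPM in P replicates 1 to 3 and 53.9, 50.3 and 48.9 CPM in AxR replicates 1 to 3. The lines were far apart, with no AxR library near the lowest P library. The means were 149 ± 5.55 CPM in P and 51.0 ± 2.57 CPM in AxR cells (SD, n = 3 each), so that AxR cells held 34.2% of the P level, which corresponds to -1.55 as a log2 difference between AxR and P cells fitted by edgeR (standard error, SE, 0.0571). Per kilobase of exon the P level of Plau was 63.0 ± 2.35 CPM (SD, n = 3), at the 95th percentile of the genes tested, and the AxR level was 21.5 ± 1.09 CPM (SD, n = 3), at percentile 81.6. The 3 tested genes on each side of Plau were Camk2g, Ndst2 and Zswim8 and, on the other side, Vcl, Ap3m1 and Adk. Their log2 fold changes lay between -0.06 and 0.64, and 4 of the 6 passed the edgeR threshold (adjusted p under 0.05), each of them upward in AxR cells. Over the 467 tested genes of chromosome 14 the median log2 fold change was 0.08. The difference of Plau was thus not shared by the genes beside it.

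Plat (ENSMUSG00000031538, bases 22757727 to 22782844 of chromosome 8, plus strand) encodes tissue plasminogen activator and was the only member with a higher level in AxR cells. Its estimated counts were 52, 47 and 46 in P libraries and 86, 98 and 94 in AxR libraries. This corresponded to 3.16, 2.71 and 3.00 CPM in P and 5.46, 6.25 and 5.35 CPM in AxR libraries, and every AxR library lay above every P library. The mean was 2.96 ± 0.226 CPM in P and 5.69 ± 0.491 CPM in AxR cells (SD, n = 3 each), a 1.92-fold level and a log2 difference of 0.94 (SE 0.155). The level stayed low in both lines, at percentiles 10.1 and 15.4 of the genes tested per kilobase of exon. The tested neighbors of Plat were Ikbkb, Polb and Vdac3 before it and Ap3m2, Kat6a and Ank1 after it, of which 4 fell in AxR cells by the same threshold, Vdac3 rose and Ank1 did not pass. Ap3m2, which starts 29.6 kb from Plat, had a log2 difference of -0.95 (SE 0.120, edgeR adjusted p = 7.8e-06). Plat therefore differed in the direction opposite to most of the genes around it.

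Together the activators summed to 61.2, 63.3 and 65.8 CPM per kilobase of exon in P libraries and to 23.6, 22.2 and 21.5 in AxR libraries. Plat made up between 0.687% and 0.828% of this sum in P and between 3.70% and 4.50% in AxR libraries. The activator transcripts of both lines were thus almost all of Plau, and the higher level of Plat, which was 0.911 ± 0.0787 CPM per kilobase in AxR cells (SD, n = 3), covered only a small part of the lower level of Plau.

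Plaur (ENSMUSG00000046223, bases 24462484 to 24475968 of chromosome 7, plus strand) encodes the receptor that holds urokinase at the cell surface through a lipid anchor. Its level was 63.3, 73.8 and 69.1 CPM in P and 50.7, 54.5 and 50.3 CPM in AxR libraries. The groups did not overlap, but the gap between the lowest P and the highest AxR library was narrow beside that of Plau. The mean was 68.8 ± 5.26 CPM in P and 51.9 ± 2.32 CPM in AxR cells (SD, n = 3 each), so that AxR cells held 75.4% of the P level, a log2 difference of -0.41 (SE 0.0661). Per kilobase of exon Plau stood at 2.51, 2.23 and 2.48 times Plaur in P libraries and at 1.17, 1.02 and 1.07 times Plaur in AxR libraries. The ligand and its receptor were therefore near the same transcript level in AxR cells. When the longest transcript was used as the length in place of all exons, that ratio lay between 1.73 and 1.95 in P and between 0.791 and 0.910 in AxR libraries, so that the order of Plau and Plaur in AxR cells depends on the length. Of the 6 tested neighbors of Plaur, 3 (Smg9, Kcnn4 and Irgq) were lower and 1 (Cadm4) was higher in AxR cells.

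**Figure D2:**
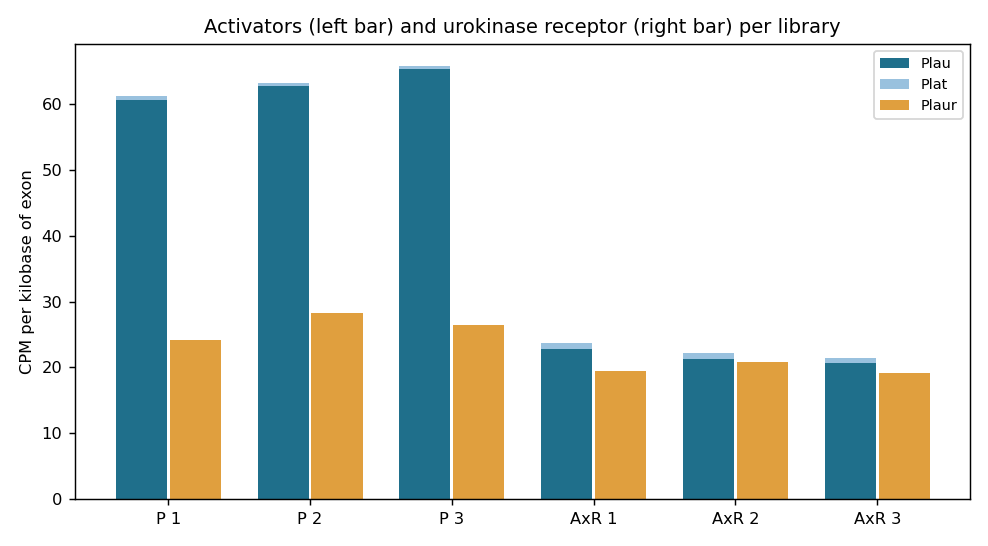
CPM per kilobase of exon (vertical axis, from 0) in each of the 6 libraries, with Plau and Plat stacked in the left bar and Plaur in the right bar. The left bars stand between 61.2 and 65.8 in P and between 21.5 and 23.6 in AxR libraries, and the right bars between 24.2 and 28.2 and between 19.2 and 20.8.

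The upstream sequence of Plaur is shown because it holds letters of several motifs, which were also searched for in all RefSeq windows. It is the stretch chr7:24462233-24462482 on the plus strand of GRCm38.p6, from RefSeq, and covers the 250 bases before the start. Capitals mark GGGCGG (GC box), TGANTCA (the site bound by AP-1 factors) and AGGAAG (a core for Ets factors), each searched on both strands, with overlapping matches counted.
Plaur: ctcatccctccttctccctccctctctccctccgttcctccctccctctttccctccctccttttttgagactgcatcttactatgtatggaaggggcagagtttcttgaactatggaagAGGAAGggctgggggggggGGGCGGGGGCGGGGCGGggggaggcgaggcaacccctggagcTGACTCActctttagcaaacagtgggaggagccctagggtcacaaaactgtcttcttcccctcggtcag
Plaur held 3 GC boxes that adjoin or overlap, 1 AP-1 motif that begins 69 bases before the start, and 1 Ets motif. Of 32851 RefSeq windows of the same length, 32.7% held a GC box, 6.75% an AP-1 motif and 29.5% an Ets motif. Because the sequence is shown for its motifs, nothing is read from these shares.

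Serpine2 (ENSMUSG00000026249, bases 79794197 to 79861180 of chromosome 1, minus strand) encodes protease nexin-1, which inhibits urokinase, tissue activator and thrombin at the cell surface. It had 191, 194 and 153 estimated counts in P libraries and 0 in each AxR library. In CPM this was 11.6, 11.2 and 9.98 in P libraries. P libraries were close to each other and AxR libraries were empty, at a depth where 0 counts still allow 0.196 CPM. The P mean of 10.9 ± 0.850 CPM (SD, n = 3) was at least 55.9-fold higher than that floor. Of the genes tested, 32 had no count in any AxR library. The 6 tested genes nearest to Serpine2 had AxR levels above the floor. Mrpl44, a mitochondrial ribosomal protein gene that starts 18.2 kb away, had 19.1 ± 0.742 CPM in P and 18.6 ± 1.33 CPM in AxR cells (SD, n = 3 each). Wdfy1 had a log2 fold change of 0.22 and Ap1s3 of -0.75 on that side, and Gm5529, Gm28071 and Cul3 had 0.55, -0.89 and -0.52 on the other. Gm5529 and Mrpl44 did not pass an adjusted p under 0.05 by edgeR, and Gm28071 (adjusted p = 0.0472 by edgeR, 0.0401 to 0.173 over the alternatives) was close to the threshold. Within 2 Mb on each side, 12 genes were tested, with a median log2 fold change of -0.16, and over the 811 tested genes of chromosome 1 the median was -0.29. The absence of counts was therefore seen for Serpine2 and for none of these 6 neighbors.

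Serpinb2 (ENSMUSG00000062345, bases 107511423 to 107535478 of chromosome 1, plus strand) encodes plasminogen activator inhibitor-2, a serpin that is largely kept inside the cell. It lies 27.7 Mb from Serpine2. Its estimated counts were 35, 42 and 47 in P libraries and 1, 0 and 0 in AxR libraries. In P cells this was 2.13, 2.42 and 3.06 CPM, with a mean of 2.54 ± 0.479 CPM (SD, n = 3). The P spread was wide, with a coefficient of variation of 18.9% against 7.78% for Serpine2, yet each P library was far above each AxR library. Counting error is larger for Serpinb2, which had fewer counts than Serpine2, and whether its spread exceeds that error was not tested. Over all libraries 124 counts in P stood against 1 in AxR, a ratio of 124 with an exact 95% counting interval from 21.8 to 4926. Without AxR replicate 1, which held the only count, the P level was at least 13.0-fold higher than the floor. The tested neighbors of Serpinb2 were sparse. Serpinb5, Vps4b and Kdsr lay before it, the nearest 650 kb away. Dsel, Tsn and Nifk lay after it, at 4347, 10783 and 10810 kb, so that they say little of its surroundings. All 6 were above the floor in AxR cells. Serpinb5, which encodes maspin and belongs to the same serpin cluster, had 1.40, 1.15 and 1.83 CPM in P and 4.83, 4.08 and 4.49 CPM in AxR libraries, a log2 difference of 1.62 (SE 0.206, edgeR adjusted p = 6.06e-06). Serpinb10 overlaps Serpinb2 on the same strand and had no count in any library. Serpinb8 (bases 107590006 to 107610484) starts closer to Serpinb2 than any tested gene but had too few counts to be tested. It had 2, 5 and 9 counts in P and 0, 0 and 1 in AxR libraries, so that it too was at the floor in AxR cells.

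The upstream sequences of both serpins are shown because the genes were near or at 0 in the same line. They are chr1:79858697-79858915 on the minus strand for Serpine2 and chr1:107511173-107511422 on the plus strand for Serpinb2, both of GRCm38.p6 and from RefSeq. For Serpine2 the last 31 of the 250 bases before the RefSeq start are left out, since GENCODE places them in an exon. That RefSeq start lies downstream of the outermost GENCODE start of Serpine2, at base 79861180. The stretch shown is thus inside the gene as GENCODE bounds it, and is upstream of the RefSeq start only. Capitals mark the same motifs, and TATAAA in Serpinb2.
Serpine2: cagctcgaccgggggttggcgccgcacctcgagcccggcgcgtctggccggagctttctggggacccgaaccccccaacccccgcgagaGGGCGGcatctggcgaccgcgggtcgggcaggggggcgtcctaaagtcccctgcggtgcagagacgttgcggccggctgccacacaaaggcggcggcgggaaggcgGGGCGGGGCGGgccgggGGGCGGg
Serpinb2: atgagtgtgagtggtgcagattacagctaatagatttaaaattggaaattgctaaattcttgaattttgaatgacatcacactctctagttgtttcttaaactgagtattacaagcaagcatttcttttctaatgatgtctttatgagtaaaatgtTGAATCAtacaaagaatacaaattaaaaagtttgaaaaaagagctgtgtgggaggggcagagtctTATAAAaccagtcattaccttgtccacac
These stretches had little in common. Over its 250 bases Serpine2 had 78.8% G and C, at percentile 98.4 of the RefSeq windows, with 34 CpG dinucleotides, 6 GC boxes (4 of them in the stretch shown) and 1 Ets motif, which lies in the part left out. Its CpG count was 0.912 of that given by its base composition, where the median window had 0.373. Serpinb2 had 32.4% G and C, at percentile 2.76, and no CpG. It held TATAAA that begins 29 bases before the start, found in 12.4% of windows, and 1 AP-1 motif that begins 94 bases before it. A second RefSeq start of Serpinb2 lies downstream, and its window overlaps the one shown. For the other members no window is given here.

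**Figure D3:**
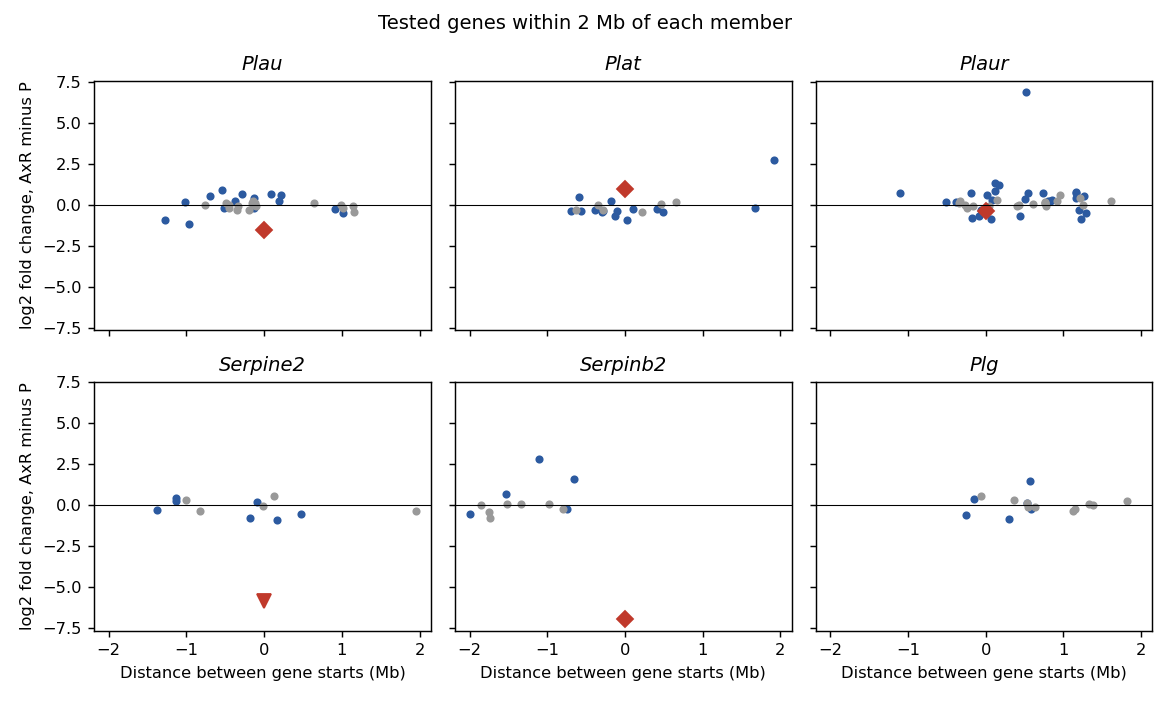
Log2 fold change between AxR and P cells (vertical axis) of tested genes by the distance of their start from that of each member in Mb (horizontal axis), with blue points for genes that passed the edgeR threshold (adjusted p under 0.05) and gray points for the others. Red diamonds are the members (for Serpinb2 the ratio of summed counts), the red triangle is the bound for Serpine2, and Plg was not tested. Serpine2 and Serpinb2 lie far below the tested genes around them.

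Plg (ENSMUSG00000059481, bases 12378608 to 12419385 of chromosome 17, plus strand) was at 0 counts in all 6 libraries. That is under the floor of 0.196 CPM, which covers counting error only. Plasminogen is made mainly by the liver, and no transcript of the zymogen was detectable in either line at this depth. It overlaps Slc22a3 on the opposite strand, which had 1 count over all libraries.

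In P cells the order of levels per kilobase of exon was Plau (63.0 ± 2.35 CPM), Plaur (26.3 ± 2.01), Serpine2 (1.32 ± 0.103), Serpinb2 (1.08 ± 0.204), Plat (0.474 ± 0.0363) and Plg (0), each with SD and n = 3. By this length the P libraries of Serpine2 (1.40, 1.35 and 1.20) and Serpinb2 (0.906, 1.03 and 1.3) overlapped. With the longest transcript as the length they did not, with 3.42, 3.30 and 2.94 CPM per kilobase for Serpine2 and 1.07, 1.21 and 1.54 for Serpinb2, so that whether these neighbors in the order are apart depends on the length. The longest annotated transcript of Serpine2 has 3393 bases in 1 exon, so that this length need not be that of its spliced messenger. Plat had 0.732 CPM per kilobase by the longest transcript. In AxR cells the order was Plau (21.5 ± 1.09), Plaur (19.8 ± 0.888), Plat (0.911 ± 0.0787), Serpinb2 (0.00901 ± 0.0156) and Serpine2 and Plg (0), where Plau and Plaur overlapped. Plat thus moved from below both serpins in P cells to above both in AxR cells.

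The other genes of the pathway were taken from 7 lists by role, with 52 genes in all. The lists were chosen with earlier results of these data known, so that their counts are a description. Of these, 34 were tested and 29 passed the edgeR threshold (adjusted p under 0.05), 11 upward and 18 downward in AxR cells, where 63.5% of all genes tested passed, 32.8% upward and 30.8% downward. The median log2 fold change of the 34 was -0.22, where that of all genes tested was 0.01. Of the 18 not tested, 7 had no count in any library.

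The 6 further inhibitors on the list had too few counts to be tested. Neuroserpin (Serpini1) had at most 8 counts in a library. Serpina5, Serping1 and Serpinf2, which encodes the main plasmin inhibitor of plasma, had at most 2 counts in a library, and A2m and Cpb2 had none. All 4 genes for plasminogen binding at the cell surface were called, as were 63.5% of all genes tested. Plgrkt, a membrane receptor for plasminogen, rose from 15.9 ± 1.19 to 22.1 ± 1.29 CPM (log2 fold change 0.47, adjusted p = 0.00017 by edgeR), and Eno1 rose by 0.34 on the log2 scale. Eno1 can share reads with a near-identical copy, Eno1b, so that its value is uncertain. Anxa2 and S100a10, whose products form a complex that binds plasminogen and tissue activator, fell from 603 ± 25.9 to 423 ± 20.8 and from 312 ± 15 to 263 ± 20.4 CPM (SD, n = 3 each), with log2 differences of -0.51 (adjusted p = 5e-07) and -0.25 (adjusted p = 0.00194), both by edgeR.

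Of 6 proteases that can turn pro-urokinase into its active form, 3 were tested. Cathepsin B (Ctsb) rose from 228 ± 2.36 to 302 ± 5.36 CPM (SD, n = 3 each), with a log2 difference of 0.40 (adjusted p = 1.44e-06 by edgeR). Matriptase (St14) had 168 ± 5.51 CPM in P and 172 ± 7.50 CPM in AxR cells, and cathepsin L (Ctsl) 771 ± 42.7 and 707 ± 49.3 CPM (SD, n = 3 each), and neither passed the threshold (adjusted p = 0.636 and 0.0707 by edgeR). Hpn, Klkb1 and F12 had at most 2 counts in a library.

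The receptors that clear activator and serpin complexes or partner with the urokinase receptor held the widest changes. Of 9 genes 8 were tested, and 4 were higher and 3 lower, where 32.8% of all genes tested were higher and 30.8% lower. Lrp1, the endocytic receptor for complexes of urokinase with its inhibitors, had 357, 358 and 338 CPM in P and 1130, 1166 and 1220 CPM in AxR libraries, a log2 difference of 1.74 (SE 0.0489, edgeR adjusted p = 5.21e-13). Its chaperone Lrpap1 rose by 0.77 and the related receptor Sorl1 by 0.74 on the log2 scale. Vldlr, of the same receptor family as Lrp1, changed in the opposite direction, with 22.3, 20.2 and 22.2 CPM in P and 1.65, 2.17 and 1.54 CPM in AxR libraries, a log2 difference of -3.59 (SE 0.134, edgeR adjusted p = 9.68e-12). Members of this family were thus neither jointly higher nor jointly lower. Mrc2, a collagen receptor that associates with the urokinase receptor, had 0, 6 and 1 counts in P and 46, 66 and 51 counts in AxR libraries. Igf2r, which binds Plaur and plasminogen, fell from 412 ± 6.44 to 230 ± 8.28 CPM (SD, n = 3 each), and Itgav, a chain of the vitronectin receptor, fell by 0.47 on the log2 scale. Itgb3 had 0.682 ± 0.258 and 0.864 ± 0.169 CPM (SD, n = 3 each) and did not pass the threshold (adjusted p = 0.432 by edgeR). Vtn, which encodes vitronectin, had at most 2 counts in a library.

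All 4 tested genes among 8 substrates of plasmin fell, as did 30.8% of all genes tested. Of the metalloproteases that plasmin can activate, Mmp9 had 83.9, 81.6 and 82.6 CPM in P and 23.1, 22.9 and 22.0 CPM in AxR libraries, a log2 difference of -1.87 (SE 0.0602, edgeR adjusted p = 2.32e-12). Mmp3 and Mmp13 fell by 1.92 and 1.63 on the log2 scale (adjusted p = 1.71e-09 and 1.02e-05 by edgeR). Fibronectin (Fn1) was called at a smaller size, from 3620 ± 63.8 to 2751 ± 77.5 CPM (SD, n = 3 each). The fibrinogen chains Fga, Fgb and Fgg had no count in any library.

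Serpine2 also inhibits thrombin, so that thrombin and tissue factor genes were taken as a list of 8. Of these 4 were tested and all were called, as were 63.5% of all genes tested. The thrombin receptor F2r fell from 160 ± 2.92 to 92.0 ± 2.36 CPM and F2rl1 from 37.8 ± 1.42 to 19.2 ± 0.342 CPM (SD, n = 3 each), with log2 differences of -0.80 and -0.98 (adjusted p = 2.6e-09 and 1.31e-08 by edgeR). Tissue factor (F3) had 6.99, 5.43 and 6.52 CPM in P and 20.5, 23.3 and 24.8 CPM in AxR libraries, a log2 difference of 1.86 (SE 0.112, edgeR adjusted p = 1.83e-09), and its inhibitor Tfpi rose from 0.929 ± 0.194 to 2.39 ± 0.152 CPM (SD, n = 3 each). F2r and F2rl1 were thus lower, whereas F3 and Tfpi were higher. Prothrombin (F2) had at most 1 count in a library, and Thbd had none.

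AP-1 and Ets factors are known regulators of Plau and Plaur. All 11 of the list were tested, of which 7 fell and 2 rose, where 30.8% of all genes tested fell and 32.8% rose. Fosl1, the most changed, had 216, 241 and 210 CPM in P and 64.0, 67.2 and 81.8 CPM in AxR libraries, a log2 difference of -1.65 (SE 0.0875, edgeR adjusted p = 1.64e-08). Etv4 and Jun fell by 0.99 and 0.77 on the log2 scale (adjusted p = 5.27e-09 and 0.00314 by edgeR). Fosb rose from 4.27 ± 0.305 to 10.6 ± 1.37 CPM (SD, n = 3 each), whereas the rise of Fos (log2 fold change 0.83, adjusted p = 0.0125 by edgeR) was lost without P replicate 1 (edgeR adjusted p = 0.0532) or AxR replicate 2 (0.0692). For Jund (0.14) and Fosl2 (-0.04) the log2 difference missed the threshold. No protein or binding was measured.

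**Figure D4:**
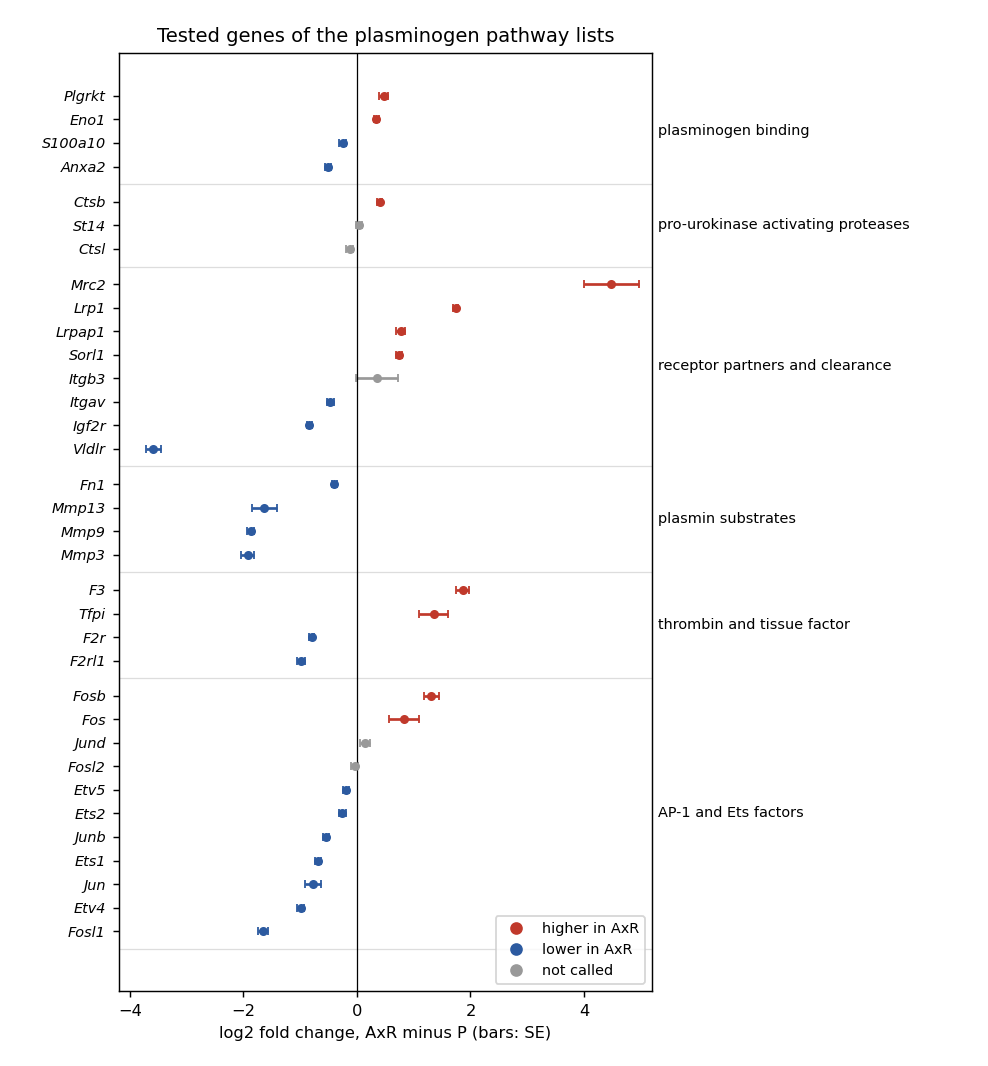
Log2 fold change between AxR and P cells (horizontal axis) with its standard error (bars) for the 34 tested genes of the pathway lists, which are named at the right. Red points passed an adjusted p under 0.05 by edgeR as higher, blue as lower, and gray did not pass; all 4 substrates are lower, and the value of Mrc2 rests on at most 6 counts in a P library.

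Across the serpin family, 65 other genes were taken, of which 7 were tested, 25 had too few counts and 33 had none. All 7 tested were called, 5 as higher and 2 as lower, with a median log2 fold change of 1.51, where 32.8% of all genes tested were called as higher and 30.8% as lower. Serpinb6b rose from 1.15 ± 0.249 to 8.46 ± 0.428 CPM, Serpinb9b from 0.805 ± 0.371 to 3.72 ± 0.572 CPM and Serpinb9, chosen after its values were seen, from 6.10 ± 0.679 to 17.4 ± 2.26 CPM (SD, n = 3 each). These lie among close paralogs on chromosome 13, between which reads can be shared. Serpinf1, which encodes a secreted serpin that does not inhibit proteases, fell from 2.24 ± 0.121 to 0.973 ± 0.143 CPM (SD, n = 3 each). The call of Serpinb6a was weak (223 ± 10.3 and 204 ± 7.63 CPM, adjusted p = 0.0417 by edgeR, 0.0203 to 0.170 over the alternatives), with overlapping libraries. None of these 7 was at the floor in AxR cells.

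The tested genes most like each member were found from the distance between log2 CPM profiles over the 6 libraries, each centered on its own mean. For Serpine2 these were Ube2ql1, Epdr1 and Gng11 (distances 0.421, 0.582 and 0.603 on the log2 scale), on chromosomes 13, 13 and 6, each without a count in AxR libraries and with 8.75 ± 0.190, 7.99 ± 0.373 and 14.8 ± 1.22 CPM in P cells (SD, n = 3 each). For Serpinb2 they were Rasef, Lcp1 and Adam19 (distances 0.455 to 0.524), all above the floor in AxR cells. Their log2 fold changes were -4.34, -4.53 and -4.14, where the summed counts of Serpinb2 gave a log2 ratio of 6.95 for P over AxR. The prior count of 2 used for these profiles shrinks differences at low counts, so that the likeness to Serpinb2 depends on it. For Serpine2 and its nearest genes, without a count in AxR libraries, the AxR values come from that prior alone. For Plau they were Hes1, Unc13b and Glipr2, for Plat Urod, 6330403L08Rik and Sh3tc1, and for Plaur Nubp1, Trim16 and Slc10a3. All profiles share the same 6 libraries, and these cover only 2 lines.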

How the data were processed

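The authors made stranded mRNA libraries of 3 P and 3 AxR samples of 4T1 cells. Per the labels and methods, the authors checked reads with FastQC 0.11.5, aligned them to GRCm38 with STAR 2.6.0a and GENCODE M16, and deposited estimated counts per gene from RSEM 1.3.1, before filtering and normalization. RSEM divides reads between near-identical genes by likelihood.

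Estimated counts were rounded, filtered with filterByExpr and normalized by upper quartile, then compared between lines in edgeR 4.0.16 (R 4.3.3) by its robust quasi-likelihood test, with no covariate. Adjustment was by Benjamini-Hochberg over the 13550 genes tested, which held 99.9% of the counts, at a threshold of 0.05. Each SE was derived from that test, as the absolute log2 fold change over the square root of its F statistic. Log2 CPM for profile distances used a prior count of 2. Symbols, positions and exon lengths came from GENCODE M21, in which 53360 of 53465 identifiers were found, and upstream sequences from RefSeq, which held 3 of the 6 genes. The estimated counts ranged from 15495260 to 17294525 per library. Replicates of a line differed by more than sampling noise (chi-square over its degrees of freedom 4.75 to 17.9) and all 6 were used. Same-numbered P and AxR libraries did not deviate together (correlations from -0.0217 to -0.0061).

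The 6 genes and all lists were chosen with earlier results of these data known. Named genes were the members, up to 3 highest and 3 lowest called genes of each list and of the other serpins, the 3 nearest tested genes on each side of each member and the 3 nearest profiles. Other genes of a list are named to complete its account. Alternatives were TMM, library size only, DESeq2 1.42.0, limma-voom (limma 3.58.1), other count filters, the replicate number as a block, each library left out, a fold threshold and another gene length. The fit was tested on simulated data. Protein sequences were not used here. An item of the lists is not reported here.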

Additional observations from a re-analysis of the deposited data

How the results depend on the processing

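Under every alternative that gave a value, Plau, Plaur, Serpine2 and Serpinb2 were lower and Plat was higher in AxR cells. The log2 fold change lay between -1.58 and -1.52 for Plau, between 0.87 and 1.00 for Plat and between -0.46 and -0.35 for Plaur, and the bound for Serpine2 between 5.76 and 5.90 on the log2 scale. The log2 ratio of summed counts of Serpinb2 was 6.95, and between 6.31 and 7.06 with a library left out. Without AxR replicate 1 it had no value, and with at least 10 counts in every library Serpine2 and Serpinb2 were not tested. TMM, library size only and DESeq2 moved the median of all genes by -0.01, -0.02 and -0.01.

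With a second threshold of 1 on the absolute log2 fold change there were 1083 genes higher and 640 lower. Of the pathway genes 5 were higher and 5 lower, and of the other serpins 4 were higher and 1 lower. Leaving out single libraries gave 1 to 3 other serpins called lower. Replicate numbers did not pair the libraries. With the replicate block, 1 other serpin was lower, Serpinb6a being lost, 8327 genes were called, 8259 of them also without it, and 5 of the 6 members were called. Among neighbors not called, the log2 fold change turned without AxR replicate 1 for Zfp94 (0.15, range with single libraries left out -0.28 to 0.15), Mrpl44 (0.02, range -0.08 to 0.02) and Mrpl18 (-0.04, range -0.04 to 0.23), and without P replicate 2 for Dsel (-0.02, range -0.02 to 0.18). Per kilobase of the longest transcript, the P levels of Plat, Plaur and Serpine2 were 0.732, 34.2 and 3.22 CPM. At this depth 3 counts limit what can be told of genes near 0.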
